A study of Mus musculus with 2 samples.

Results

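IL-17-type γδ T cells are lymphocytes that carry a T cell receptor of γ and δ chains and make interleukin 17. They were taken here as cell barcodes with at least 2 UMIs over Cd3e, Cd3d and Cd3g, at least 1 UMI of Trdc, at least 1 UMI over Cd163l1 and Il17a, no Foxp3, no Cd8b1, at most 1 UMI over Klra1, Klra6 and Klra7, and at most 1 over C1qa, C1qb and Csf1r. A UMI is a molecular tag that stands for a single captured RNA. The rule kept 127 barcodes of 11197, with 82 from the library labelled Tdg_KO and 45 from the library labelled Tdg_WT. The members were thus chosen by their measured UMIs of these genes, which are described here and support nothing. A barcode stands for a droplet that held, as a rule, a single cell.

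The libraries were made from live CD45-positive immune cells sorted out of subcutaneous KP allograft tumours of mice, collected at day 14. The Tdg_KO library (titled KPT) has the genotype label Tdg KO, and the Tdg_WT library (titled KP) has the genotype label WT; both went through the same sort and the same 10x Genomics 3′ kit. The labels do not say whether tumour cells, host cells or both carry the genotype, nor how many mice were pooled, and each group is 1 library. The groups could therefore not be tested against each other, since nothing shows how far 2 libraries of 1 group would differ. Intervals given with ratios and shares are 95% intervals for counting error only.

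In the mouse, most T cells that make interleukin 17 without prior priming are γδ T cells that commit to this fate in the thymus, under transcription factors that include Sox13 and Maf and with the kinase Blk. In tissues and tumours they respond to interleukin 1 and interleukin 23, and interleukin 17 acts on epithelial and stromal cells to draw in neutrophils. A set of them arises before birth and pairs the γ variable gene Tcrg-V6 with the δ variable gene Trdv4, while others use Tcrg-V4. The scavenger receptor genes Cd163l1 (also Scart1) and 5830411N06Rik (also Scart2) have been described in mice as marks of the Tcrg-V6 and the Tcrg-V4 cells.

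The genes that define these barcodes lie in a few clusters of the mouse genome. Trdc, the δ constant gene, is on chromosome 14 at 54142851 to 54148868 (plus strand, GRCm38, GENCODE M21). Tcrg-C1, a γ constant gene, is on chromosome 13 at 19214103 to 19217024. Cd163l1 (chromosome 7, 140218267 to 140231145) and 5830411N06Rik (chromosome 7, 140247284 to 140300736) are neighbours on the plus strand and are related in sequence, so reads that match both could have been split between them or lost. Il17a (chromosome 1, 20730905 to 20734496, plus strand) and Il17f (chromosome 1, 20777146 to 20790617, minus strand) also neighbour each other. All 17 Tdg_KO and all 3 Tdg_WT members with an Il17f UMI also had one of Il17a. Members without Cd163l1 hold Il17a by the rule, so for those among them this was fixed in advance. The 250 bases before the RefSeq start of each of these 2 neighbours are shown, with the letters of a nuclear receptor half-site (AGGTCA, or TGACCT on the other strand) in capitals.
Il17a, GRCm38.p6 chr1:20730655-20730904, plus strand: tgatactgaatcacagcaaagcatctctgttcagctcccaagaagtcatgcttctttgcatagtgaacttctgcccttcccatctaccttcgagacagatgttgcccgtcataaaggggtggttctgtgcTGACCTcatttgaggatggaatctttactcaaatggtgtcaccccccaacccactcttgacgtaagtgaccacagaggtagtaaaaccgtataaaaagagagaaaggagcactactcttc
Il17f, GRCm38.p6 chr1:20784271-20784520, minus strand: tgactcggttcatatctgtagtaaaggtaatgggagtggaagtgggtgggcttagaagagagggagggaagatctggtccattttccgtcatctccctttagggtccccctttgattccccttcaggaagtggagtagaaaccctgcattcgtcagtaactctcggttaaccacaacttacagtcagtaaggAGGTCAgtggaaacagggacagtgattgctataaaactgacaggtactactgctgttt
The letters lie 120 to 115 bases before the Il17a start and 58 to 53 bases before the Il17f start. This RefSeq start of Il17f lies within the GENCODE span given above, not at its end. Of 32851 RefSeq promoter windows of this length, 14.0% held them on either strand, and a match is a description of letters, not of binding.

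The libraries held 5896 barcodes and 52586319 UMIs (Tdg_KO) and 5604 barcodes and 39819010 UMIs (Tdg_WT), of which 5693 and 5504 barcodes passed the filters. The members had a median of 4671.5 UMIs per barcode in Tdg_KO (1708 to 16773) and 5600 in Tdg_WT (1334 to 20049), against 7001 and 6308.5 in the other T barcodes. In all, 437352 UMIs (Tdg_KO) and 293835 UMIs (Tdg_WT) stand behind the member values, so that 3 UMIs correspond to 6.86 and 10.2 CPM (UMIs per 1000000 UMIs of the set). Mitochondrial UMIs made up a median of 2.6% per Tdg_KO member and 1.95% per Tdg_WT member, against 2.65% and 2.04% in the other T barcodes. The libraries shared 8 barcode sequences, none of them a member. Tdg itself (chromosome 10, 82629828 to 82650799, plus strand) had 13 UMIs in Tdg_KO members and 8 in Tdg_WT members, and a 3′ count does not check a deletion elsewhere in the gene.

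The label was checked against the markers. Tcrg-C1, which the rule did not use, was found in 69 of 82 Tdg_KO members and 41 of 45 Tdg_WT members, against 9.34% and 6.24% of other T barcodes. Cd8a had 2 UMIs in Tdg_KO and 0 in Tdg_WT, which is no independent check, since the rule asked for no Cd8b1. CD4 T cell markers (Cd4 and Cd40lg) had 13 UMIs in Tdg_KO and 1 in Tdg_WT. The α chain constant gene Trac was found in 20 of 82 Tdg_KO and 14 of 45 Tdg_WT members, and 1 Tdg_WT barcode held 64.0% of that library's 50 Trac UMIs. The β chain constant genes Trbc1 and Trbc2, which are near-identical in part and may share reads, had a UMI in 78 of 82 and 41 of 45 members. Trbc1 was at 588 CPM in Tdg_KO members and 756 CPM in Tdg_WT members, against 724 and 688 CPM in other T barcodes. Trbc2 was at 1054 and 1041 CPM, against 1387 and 1372 CPM. These genes thus do not set the members apart from other T barcodes by 2-fold.

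Most marker lists of other lineages had lower sums in members than in other T barcodes, with neutrophil (Tdg_KO), group 3 innate lymphoid (Tdg_WT), erythroid (Tdg_KO) and stromal lists as exceptions. Of 8 macrophage and monocyte markers, 5 were detected in each library, at 57.2 CPM in Tdg_KO and 34.0 CPM in Tdg_WT in sum, against 120.1 and 118 CPM in the other T barcodes. B cell markers summed to 29.7 and 30.6 CPM, nearly all of it Cd79b, with 5 of 6 markers (Tdg_KO) and 4 of 6 (Tdg_WT) at 0. NK cell markers summed to 50.3 and 54.5 CPM, against 377 and 375 CPM in the other T barcodes. Dendritic cell and antigen presentation markers summed to 329 and 177 CPM, against 1568 and 1235 CPM. The regulatory T cell list was at 174 CPM in each library, all of it Ikzf2, since Foxp3 was at 0 by rule. Markers of group 2 innate lymphoid cells summed to 192 and 119 CPM and those of group 3, which share Il22 with the type 17 programme, to 151 and 221 CPM, against 192 and 177 CPM. Stromal markers were at 43.4 and 40.8 CPM, against 31.4 and 25.6 CPM, epithelial markers at 4.57 and 20.4 CPM, and erythroid, basophil and mast, and Ly49 markers at 4.57 CPM or less. The rule itself capped the Ly49 genes and, in the macrophage list, C1qa, C1qb and Csf1r, so the sums of these lists are partly set by it. Neutrophil markers summed to 338 CPM in Tdg_KO members and 34.0 CPM in Tdg_WT members, against 113 and 155 CPM. A single Tdg_KO barcode held 95.7% of the S100a8 and 89.9% of the S100a9 UMIs, so that neutrophil RNA in the Tdg_KO members came almost wholly from 1 barcode. The part of such mixed barcodes in the results below was checked by leaving out that barcode and the Tdg_WT barcode with most Trac.

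The share of γδ T cells of this type among T barcodes was larger in Tdg_KO. They made up 82 of 3059 T barcodes (2.68%, exact Clopper-Pearson interval 2.14 to 3.32%) in Tdg_KO, against 45 of 2739 (1.64%, 1.20 to 2.19%) in Tdg_WT. The ratio was 1.63 (1.12 to 2.40). Of all kept barcodes they were 1.44% in Tdg_KO and 0.818% in Tdg_WT, a ratio of 1.76 (1.21 to 2.59). T barcodes with any Trdc were also a larger part of T barcodes, at 10.4% in Tdg_KO and 6.28% in Tdg_WT (1.65, 1.37 to 2.0). Among those, members were 25.9% in Tdg_KO and 26.2% in Tdg_WT (0.989, 0.679 to 1.46). These are shares of sorted cells from 1 library each, and a share also moves with the number of other T cells.

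Members entered the set by either gene of the type 17 signature. In Tdg_KO, 28 had Cd163l1 and no Il17a, 37 had both and 17 had Il17a alone. In Tdg_WT the counts were 18, 22 and 5. The gene Il17a was found in 37 of 65 Tdg_KO members with Cd163l1 (56.9%, 44.0 to 69.2%) and in 22 of 40 Tdg_WT members with Cd163l1 (55%, 38.5 to 70.7%). Thus the detected share of Il17a among Cd163l1 barcodes differed by less than its counting error.

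Some barcodes lay close to the thresholds on either side. Just inside, 6 Tdg_KO members and 1 Tdg_WT member had a single Trdc UMI, and 8 and 5 members had a single UMI over Cd163l1 and Il17a. Just outside, 32 barcodes in each library met every other part of the rule with no Trdc, and Trac was found in 23 (Tdg_KO) and 26 (Tdg_WT) of them. A further 91 Tdg_KO and 56 Tdg_WT barcodes had Trdc but neither Cd163l1 nor Il17a. The Foxp3 limit kept out 12 and 3 barcodes, the Cd8b1 limit 6 and 0, the limit on C1qa, C1qb and Csf1r 9 and 2, and the Klra limit 2 and 1. B cells should lack these genes and were used as a guide to free RNA in the droplets. They were taken as barcodes with at least 2 UMIs over Cd79a, Cd79b and Ms4a1 and no UMI of Cd3e, Cd3d or Cd3g. The Cd3 condition also leaves out B cells with free T cell RNA, so their counts of these genes may be too low. Of 142 Tdg_KO and 224 Tdg_WT B cell barcodes, with median depths of 3623.5 and 3771 UMIs, 2 and 1 held Trdc and none held Il17a or Cd163l1. That count of 0 allows a share of up to 2.11% and 1.34%, taken as 3 counts of the total.

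**Figure D1:**
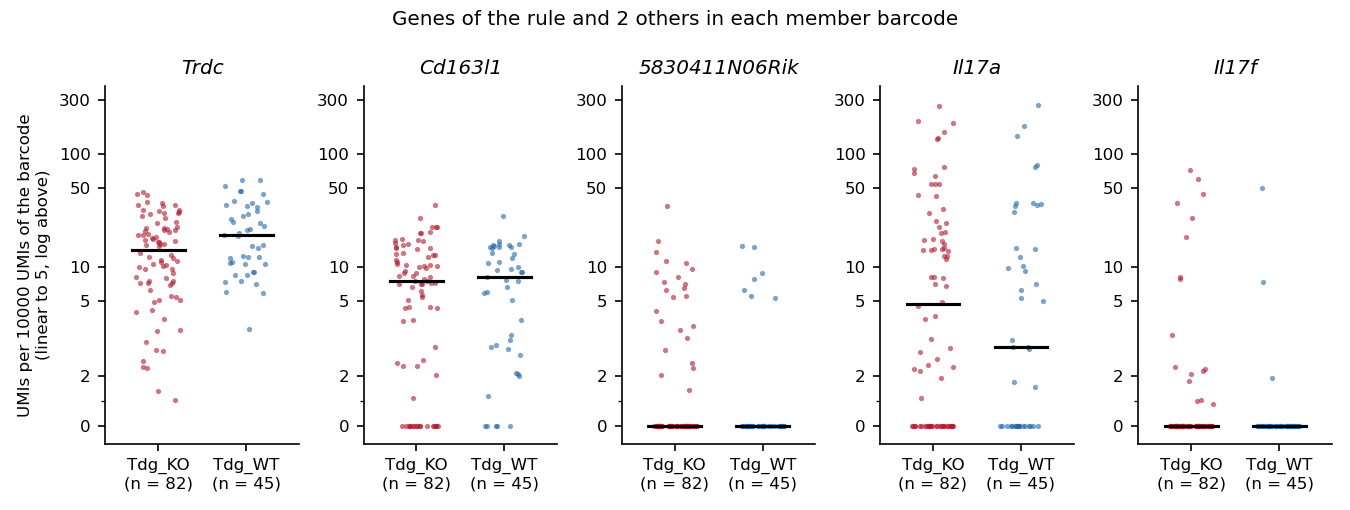
Each point is 1 member barcode, with the gene's share of the UMIs of that barcode, scaled to 10000, on the y axis (linear up to 5, logarithmic above) and the library on the x axis; black bars are medians. Trdc is present in every member by rule, while Il17a ranges from 0 to 266 in Tdg_KO and to 273 in Tdg_WT, and most barcodes have no Il17f.

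Interleukin 17A RNA was concentrated in few barcodes. Il17a had 1005 UMIs in Tdg_KO members and 736 in Tdg_WT members, or 2298 and 2505 CPM, a ratio of 0.917 (0.833 to 1.01). Per barcode it ranged from 0 to 101 UMIs in Tdg_KO, with a median of 2.5, and from 0 to 233 in Tdg_WT, with a median of 2. The 5 highest of 82 barcodes held 41.2% of the Il17a UMIs in Tdg_KO, and the 5 highest of 45 held 74.6% in Tdg_WT. In Tdg_WT these 5 are a larger part of the members, so the 2 values are not like for like. The libraries overlap over nearly the whole range. Il17f, the close relative of Il17a, had 166 UMIs in 17 Tdg_KO members and 46 UMIs in 3 Tdg_WT members. Its ratio of 2.42 (1.74 to 3.44) rests on few cells, since 1 barcode held 30.1% of the UMIs in Tdg_KO and 1 held 89.1% in Tdg_WT. Among members with Cd163l1 and no 5830411N06Rik the ratio was 0.530. Il22, another cytokine of type 17 cells, had 0 UMIs in Tdg_KO and 44 in Tdg_WT, of which 88.6% were in 1 barcode.

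The members divided by scavenger receptor gene. Cd163l1 without 5830411N06Rik was found in 56 Tdg_KO and 38 Tdg_WT members, 5830411N06Rik without Cd163l1 in 15 and 5, both in 9 and 2, and neither in 2 and 0. 5830411N06Rik thus had a UMI in 24 of 82 Tdg_KO members (29.3%, 19.7 to 40.4%) and 7 of 45 Tdg_WT members (15.6%, 6.49 to 29.5%), with overlapping intervals. Thinned to 1000 UMIs per barcode, the shares were 13.4% and 6.67%. Its level was 203 CPM in Tdg_KO and 102 CPM in Tdg_WT (1.99, 1.30 to 3.12). The medians of total UMIs were 4961 (Tdg_KO) and 5490 (Tdg_WT) for barcodes with 5830411N06Rik, and 4546 and 5755.5 for those with Cd163l1 alone.

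The δ variable gene Trdv4 followed this division. It was found in 3 of 24 Tdg_KO and 0 of 7 Tdg_WT members with 5830411N06Rik, against 43 of 56 (76.8%) and 31 of 38 (81.6%) members with Cd163l1 alone. Thinned to 1000 UMIs, 1 of 24 and 0 of 7 had it, against 21 of 56 and 14 of 38. At the level of summed UMIs Trdv4 stood at 38.9 CPM (Tdg_KO) and 0 CPM (Tdg_WT) in the first set and at 416 and 432 CPM in the second. The γ variable gene Tcrg-V6 had a UMI in 17 Tdg_KO and 13 Tdg_WT members, and Tcrg-V4 in 5 and 0. No member had both. A count of 0 of 45 allows a share of up to 6.67% (3 counts of the total) for Tcrg-V4 in Tdg_WT. Variable segments lie far from the 3′ end that the kit reads, so a barcode without one is not a cell without it.

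Il17f was more often seen with 5830411N06Rik. Barcodes with 5830411N06Rik and no Cd163l1 hold Il17a by the rule, so Il17f is compared here among members with Il17a. In these, Il17f was found in 12 of 17 Tdg_KO and 2 of 6 Tdg_WT members with 5830411N06Rik, against 4 of 35 and 1 of 21 members with Cd163l1 alone. Both libraries had the same direction, with 6 barcodes in the smallest cell of this comparison. Neither the split nor these counts were tested, since the split was made with these values known.

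**Figure D2:**
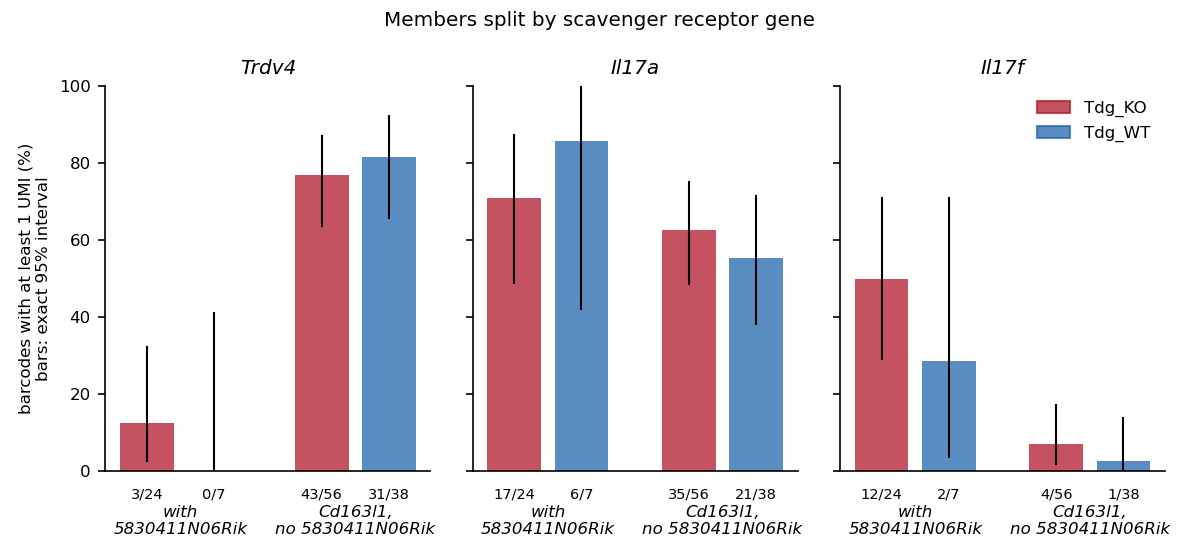
Share of members with at least 1 UMI of Trdv4, Il17a or Il17f (y axis, percent, with exact Clopper-Pearson 95% intervals), for barcodes with 5830411N06Rik and for barcodes with Cd163l1 and no 5830411N06Rik, each with Tdg_KO left of Tdg_WT. Trdv4 is in 76.8% and 81.6% of the Cd163l1 barcodes, against 3 of 24 and 0 of 7 of the others, and Il17f has the opposite pattern. The Il17a shares are partly set by the rule, and so are those of Il17f, which was seen only with Il17a.

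Other genes had unlike levels in these subsets, with the same direction in both libraries. They were chosen after their values were seen, so the shared direction is no support. Barcodes with 5830411N06Rik and no Cd163l1 entered the set through Il17a, while every barcode they are compared with held Cd163l1. Only 7 Tdg_WT members had 5830411N06Rik. Over both libraries the barcodes with 5830411N06Rik had less Pdcd1, the gene of the inhibitory receptor PD-1, at 23.3 CPM in Tdg_KO and 0 CPM in Tdg_WT, against 178 and 255 CPM with Cd163l1 alone. The ratio over both libraries was 0.086 (0.0175 to 0.258), from 3 and 119 UMIs. Bcl2a1a, a survival gene with near-identical copies that may share reads, had a ratio of 0.111 (0.0355 to 0.264), and Irf4, a transcription factor of activated lymphocytes, 0.146 (0.0295 to 0.445). All 3 Irf4 UMIs of the barcodes with 5830411N06Rik lay in 1 barcode. Trdc (0.480, 0.406 to 0.565) and Tcrg-C1 (0.402, 0.303 to 0.525) were also lower in the barcodes with 5830411N06Rik. In the other direction, Igf1r, the insulin-like growth factor 1 receptor gene, stood at 544 CPM (Tdg_KO) and 317 CPM (Tdg_WT) against 185 and 154 CPM. Klf4, a transcription factor gene, was at 769.8 and 375 CPM against 326 and 235 CPM, and Ly6a, the gene of the surface antigen Sca-1, at 529 and 923 CPM against 195 and 313 CPM. Bcl2l11, which encodes the cell death protein BIM, had a ratio of 4.42 (2.6 to 7.60).

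Set against all other T barcodes, the members carried the known type 17 programme of γδ T cells in both libraries. Of 24 type 17 surface genes, 18 were at least 2-fold higher in the members in both libraries and 0 as much lower. Over the 2000 genes with at least 50 UMIs in members, 5.2% were at least 2-fold higher in both, and over the 11640 genes tested against T barcodes 3.12% were. Of the γδ receptor and CD3 list, 7 of 11 were at least 2-fold higher and 0 lower, and this list holds Trdc. The surface list holds Cd163l1, which the rule used, and the lists were chosen with earlier results of these data known. The transcription factor list had 5 of 17 measured genes at least 2-fold higher and 1 lower.

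Among the transcription factors and kinases, Blk, a Src-family kinase gene that γδ T cells need to make interleukin 17, was at 256 CPM in Tdg_KO members and 255 CPM in Tdg_WT members, against 4.29 and 4.62 CPM in the other T barcodes. These are ratios of 59.7 (45.7 to 77.8) and 55.3 (40.5 to 75.2). Blk is also a B cell gene, with a UMI in 29.6% (Tdg_KO) and 35.3% (Tdg_WT) of B cell barcodes. Sox13 was 110-fold higher in Tdg_KO and 140-fold in Tdg_WT, from 24 and 13 member UMIs. Zbtb16, the gene of the innate T cell factor PLZF, was 14.1-fold and 10.1-fold higher, and Maf 2.37-fold and 2.74-fold. Other genes of the list had ratios below 1 in both libraries, such as Stat3 (0.645 and 0.474) and Gata3 (0.688 and 0.530). Hif1a (0.702 and 0.813) and Batf (0.656 and 0.847) were also below 1.

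Among the receptors, Il23r stood at 84.6 CPM in Tdg_KO members and 78.3 CPM in Tdg_WT members, against 2.48 and 1.86 CPM in the other T barcodes, ratios of 34.1 (22.2 to 51.4) and 42.2 (24.2 to 72.0). Il1r1 was at 139 and 228 CPM against 4.33 and 4.07 CPM, ratios of 32.2 (23.3 to 44.2) and 56.0 (40.2 to 77.7). Il17re, which encodes a receptor for interleukin 17C, was 27.2-fold and 28.5-fold higher from 30 and 14 UMIs. Il7r, whose product takes the survival signal of interleukin 7, was 3.99-fold and 2.58-fold higher. Of the chemokine receptors, Ccr2 was 2.98-fold and 2.76-fold higher and Cxcr6 2.15-fold and 2.22-fold. Ccr6, often taken as a type 17 mark, had 11 UMIs in Tdg_KO and 7 in Tdg_WT, most of the Tdg_KO ones (63.6%) in 1 barcode.

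**Figure D3:**
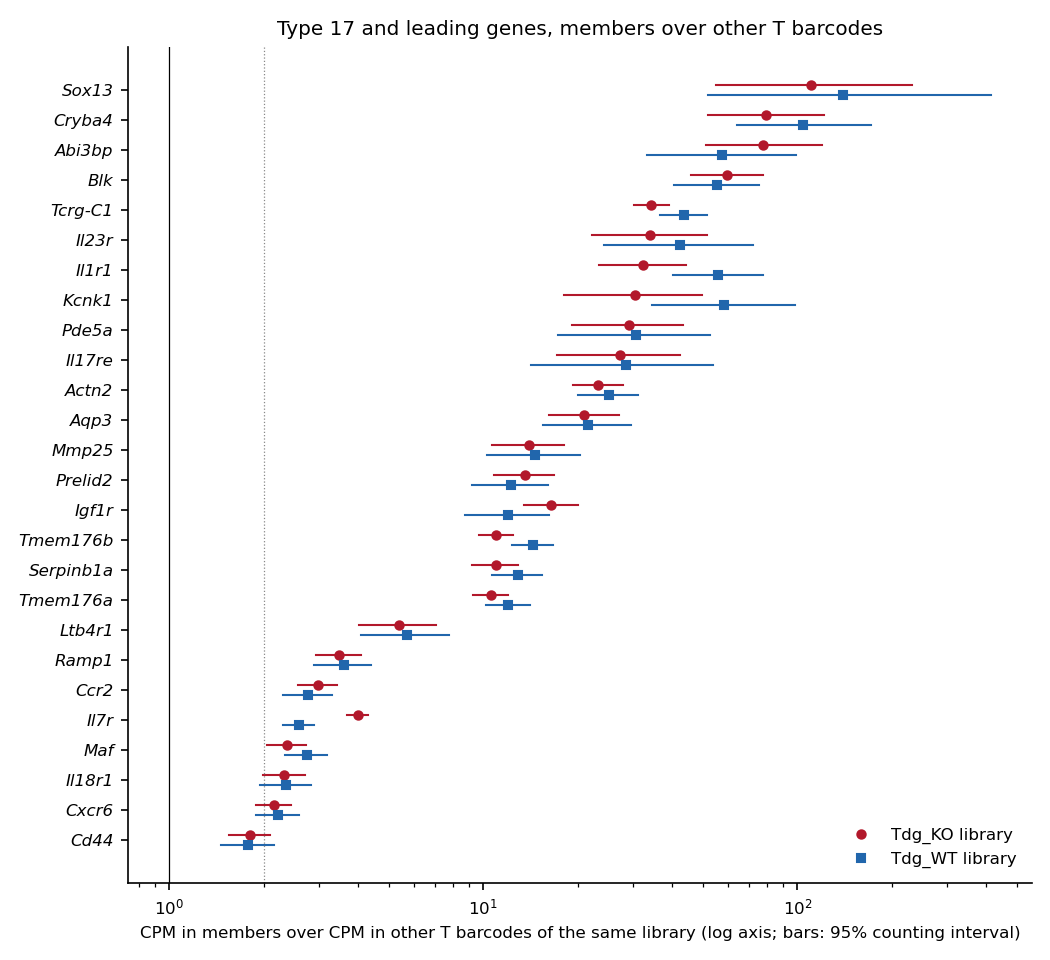
Ratio of CPM in members over other T barcodes of the same library (x axis, logarithmic, with 95% counting intervals) for leading genes and type 17 genes, Tdg_KO above Tdg_WT in each row. All 26 genes lie above 1 in both libraries, from Cd44 at 1.81 and 1.78 to Sox13 at 110 and 140. They are the 15 genes ranked highest by this ratio and others picked from the type 17 lists, so this was set by the choice. Genes of those lists below 1 in both libraries, such as Stat3 at 0.645 and 0.474, are not drawn.

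The genes with the highest ratios were not all of the textbook programme. Cryba4, the gene of a lens crystallin, was at 121 CPM in Tdg_KO members and 146 CPM in Tdg_WT members, against 1.53 and 1.40 CPM, ratios of 79.4 (52.1 to 122) and 104 (64.2 to 171). It was seen in 34.1% and 48.9% of members and in 1.04% and 0.891% of other T barcodes. Abi3bp, the gene of an extracellular matrix protein, had ratios of 77.9 (51.0 to 120) and 57.5 (33.1 to 98.7). The potassium channel gene Kcnk1 had ratios of 30.4 and 58.5, the cyclic GMP phosphodiesterase gene Pde5a 29.1 and 30.7, the actin cross-linker gene Actn2 23.2 and 25.1, and the glycerol channel gene Aqp3 21.0 and 21.5. The metalloprotease gene Mmp25 (13.9 and 14.6), Prelid2 (13.6 and 12.2), Igf1r (16.5 and 12), Tmem176b (11 and 14.4) and the serpin gene Serpinb1a (10.9 and 12.9) complete the 15 named by rule with Tcrg-C1 (34.2 and 43.5).

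T barcodes with Trdc outside the set had much lower levels of these genes. They numbered 235 in Tdg_KO and 127 in Tdg_WT, with median depths of 9125 and 9690 UMIs, and 1 Trdc UMI was enough to count. Of these, 91 and 56 were kept out only by having neither Cd163l1 nor Il17a. The rest met the Foxp3, Cd8b1 or Klra limit, so the set is not one of γδ T cells alone. Low levels of type 17 genes in it are partly set by the rule. Blk was in 56.1% (Tdg_KO) and 73.3% (Tdg_WT) of members, against 12.3% and 6.30% of these barcodes. Tcrg-C1 was in 84.1% and 91.1% of members, against 38.3% and 34.6%. Cryba4 stood at 121 and 146 CPM in members, against 3.43 and 4.74 CPM, and Il23r at 84.6 and 78.3 CPM, against 7.89 and 3.55 CPM. With these barcodes as the only comparison, 98 of 2000 genes were at least 2-fold higher in members in both libraries, against 104 with all other T barcodes.

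Cytotoxic genes ran the other way. Of 22 genes of the cytotoxic and type 1 list, 16 were at least 2-fold lower in members than in other T barcodes in both libraries and 0 as much higher, where 14.8% of 11640 genes were at least 2-fold lower. The rule kept barcodes with Cd8b1, Foxp3 or more than 1 Klra UMI out of the members, while the other T barcodes include them. Low levels of cytotoxic and checkpoint genes in members are thus partly set by the rule. Ccl4, a chemokine gene of cytotoxic T cells, was at 13.7 CPM (Tdg_KO) and 3.4 CPM (Tdg_WT) in members against 385 and 395 CPM, from 6 and 1 UMIs. Ifng, the interferon γ gene, had 1 and 2 UMIs over all members. Checkpoint and costimulatory genes were lower in 13 of 23 and higher in 1, Tnfrsf25, at 3.57-fold and 4.09-fold. Cd160, a receptor of cytotoxic lymphocytes, had 1 and 0 UMIs in members against 86.0 and 72.8 CPM in the others. Ubash3a, a negative regulator of T cell receptor signalling, had 1 and 0 UMIs against 76.3 and 70.3 CPM, and the decoy receptor gene Il1r2 1 and 0 UMIs against 60.8 and 81.3 CPM. Slfn1, Slamf7, Dusp14, Bend4 and Ebi3 had 0 UMIs in the members of both libraries. Against a floor of 3 UMIs per library, Slfn1 was at least 5.14-fold (Tdg_KO) and at least 4.45-fold (Tdg_WT) lower, and Slamf7 at least 5.0-fold and 3.61-fold lower.

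The remaining lists were set against other T barcodes in the same way. Over all 11640 genes tested, 14.8% were at least 2-fold lower in members in both libraries and 3.12% as much higher. Of the αβ receptor and coreceptor list, 4 of 6 genes were at least 2-fold lower in members (Trac, Cd4, Cd8a and Cd8b1), of which Cd8b1 was fixed at 0 by the rule. The others, Trbc1 (0.812 in Tdg_KO and 1.10 in Tdg_WT) and Trbc2 (0.760 and 0.759), were not. Lower genes numbered 10 of 22 for proliferation, 10 of 28 for type I interferon, 8 of 29 for hypoxia and glycolysis, 7 of 22 for chemokine receptors (4 higher) and 8 of 21 for cytokines and effector outputs (4 higher). They numbered 4 of 26 for the interferon γ response (1 higher), 4 of 24 for cytokine receptors (5 higher), 4 of 19 for tissue residency (2 higher), 3 of 30 for immediate early and heat shock genes, 3 of 18 for histones, 3 of 18 for lipid handling (1 higher) and 2 of 22 for the S100 and iron list (2 higher). The shares of lower genes in the interferon γ, cytokine receptor, histone and lipid lists lie near the share over all genes. Those of the immediate early and S100 lists lie below it. Where 1717 genes were lower, many rest on few predicted UMIs. Of the 2045 genes for which the level in other T barcodes predicts at least 50 UMIs in members, 117 were at least 2-fold lower in both libraries.

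The second comparison set Tdg_KO members against Tdg_WT members. Of 2000 genes with at least 50 UMIs over both, 220 (11%) were at least 1.5-fold higher and 118 (5.9%) at least 1.5-fold lower in Tdg_KO, and 338 (16.9%) passed in either direction. Of 21 measured type 17 surface genes, 1 was at least 1.5-fold higher (5830411N06Rik) and 2 lower (Il1r1 and Kcnk1), and the median log2 ratio was −0.02, against 0.00 over all genes tested. Thinned to 1000 UMIs per barcode, 5 were higher and 0 lower, and without barcodes holding UMIs of another lineage 4 were higher and 1 lower. Blk had a ratio of 1.00 (0.742 to 1.36), Il23r 1.08 (0.625 to 1.91), Cd163l1 0.975 (0.824 to 1.16), Cxcr6 0.951 (0.780 to 1.16) and Aqp3 1.09 (0.762 to 1.58). Thinned, the ratios were 2.88 for Blk, 7.68 for Il23r, 0.979 for Cd163l1, 0.713 for Cxcr6 and 1.65 for Aqp3. All but that of Cd163l1 lay outside these intervals. A Blk UMI was then left in 20 of 82 Tdg_KO and 4 of 45 Tdg_WT members, and an Il23r UMI in 12 and 1. Il1r1 was at 139 CPM in Tdg_KO and 228 CPM in Tdg_WT (0.612, 0.425 to 0.879), with 23.9% of the Tdg_WT UMIs in 1 barcode. Its ratio was 0.915 when thinned, 0.860 without barcodes holding UMIs of another lineage and 0.778 without the 2 mixed barcodes, each short of 1.5-fold. Thinning left an Il1r1 UMI in 9 of 82 Tdg_KO and 6 of 45 Tdg_WT members. Kcnk1 had a ratio of 0.600 with an interval that holds 1 (0.335 to 1.07). Il7r was at 1578 and 1092 CPM (1.44, 1.26 to 1.65).

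Receptor genes were uneven. Trdc was at 1546 CPM in Tdg_KO members and 2297 CPM in Tdg_WT members, a ratio of 0.673 (0.604 to 0.750). Per barcode it ran from 1 to 33 UMIs with a median of 6 in Tdg_KO, and from 1 to 49 with a median of 11 in Tdg_WT, so the libraries overlap. In members with Cd163l1 and no 5830411N06Rik it was at 1809 and 2473 CPM. Tcrg-C1 had a ratio of 1.16 (0.975 to 1.38) and Tcrg-C4 1.92 (1.25 to 3.04), from 83 and 29 UMIs, and γ constant genes are similar enough to share reads. Cd3e, Cd3d and Cd3g had ratios of 0.949, 0.935 and 0.947, with intervals that hold 1. Over the 9 measured genes of the γδ receptor and CD3 list the median log2 ratio was −0.08, with 1 higher and 0 lower. Transcription factor genes had a median of 0.01, with 1 higher (Stat3, 1.65) and 2 lower (Id2, 0.547, and Irf4, 0.619) of 11.

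Immediate early genes switch on within minutes of a stimulus. Of 28 measured genes of the immediate early and heat shock list, 12 were at least 1.5-fold higher in Tdg_KO members and 0 lower, and 16 had an interval wholly above 1. The background was 11% higher. The median log2 ratio was 0.42 in members and 0.14 for the same genes in the other T barcodes. Thinned to 1000 UMIs per barcode, the median in members was 0.16, with 7 genes higher and 2 lower. Without barcodes holding UMIs of another lineage, 5 were higher and 1 lower. Junb was at 4079 CPM in Tdg_KO and 2491 CPM in Tdg_WT (1.64, 1.5 to 1.79), and Jun at 1477 and 779 CPM (1.90, 1.63 to 2.21). Both encode parts of the AP-1 factor. Zfp36, the gene of a protein that destabilises cytokine RNAs, was at 713 and 347 CPM (2.06, 1.64 to 2.6). Jund (0.779) and Hspa1b (0.755) were the members of the list with an interval below 1, and Hspa1a and Hspa1b are near-identical and may share reads. Fos was at 521 and 528 CPM (0.988, 0.802 to 1.22). Nr4a1 (0.773, 0.630 to 0.95), Nr4a2 (0.852) and Nr4a3 (0.927), immediate early genes held in the checkpoint list, had ratios below 1.

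Of 15 measured genes of the hypoxia and glycolysis list, 5 were at least 1.5-fold lower in Tdg_KO members and 0 higher, beside a background of 5.9% lower, and 9 had an interval wholly below 1. The median log2 ratio was −0.52 in members and −0.28 for the same genes in other T barcodes. Tpi1, the triosephosphate isomerase gene, had 15 UMIs in Tdg_KO and 38 in Tdg_WT, or 34.3 and 129 CPM (0.265, 0.136 to 0.493), against a ratio of 0.726 in other T barcodes. Thinned to 1000 UMIs per barcode, its ratio was 0.549, and 3 genes of the list were at least 1.5-fold lower and 2 higher. Pgk1 was at 114 and 225 CPM (0.509, 0.345 to 0.746), Pgam1 at 77.7 and 139.5 CPM (0.557, 0.343 to 0.900), and Gpi1 at 158 and 255 CPM (0.618, 0.439 to 0.869). Thinned, these 3 had ratios of 0.706, 0.823 and 0.915, none past 1.5-fold. The aldolase gene Aldoa had 348 CPM in Tdg_KO and 551 CPM in Tdg_WT (0.630, 0.502 to 0.791). Gapdh had 777 and 1133 CPM (0.686, 0.588 to 0.800). Per barcode it ran from 0 to 17 UMIs in Tdg_KO with a median of 3, and from 0 to 41 in Tdg_WT with a median of 5. Hk2, which encodes the first enzyme of the pathway, had a ratio of 1.32 (0.838 to 2.12), and Hilpda, a gene induced by low oxygen, 0.801 (0.593 to 1.09).

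**Figure D4:**
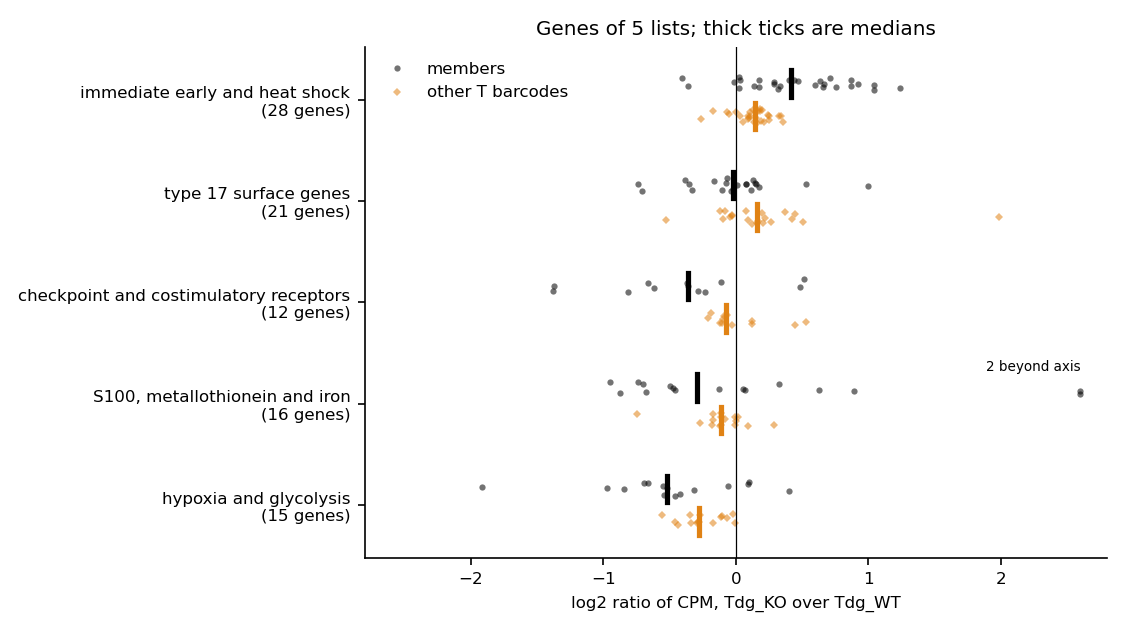
Each point is 1 gene with at least 50 UMIs over the members, placed by its log2 ratio of Tdg_KO over Tdg_WT (x axis) in members (black circles) and in other T barcodes (orange diamonds), for 5 gene lists (rows); thick ticks are medians. Members and other T barcodes have medians of 0.42 and 0.14 for immediate early and heat shock genes and of −0.52 and −0.28 for hypoxia and glycolysis; S100a8 and S100a9 lie beyond the axis.

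Of 12 measured checkpoint and costimulatory genes, 5 were at least 1.5-fold lower in Tdg_KO members (Ctla4, Pdcd1, Tnfrsf4, Tnfrsf9 and Cd2) and 0 higher, beside a background of 5.9% lower. Without barcodes holding UMIs of another lineage, 2 were lower and 3 higher, and without the 2 mixed barcodes 3 were lower and 1 higher. In the full set, the median log2 ratio was −0.37, against −0.08 in other T barcodes. Ctla4, an inhibitory receptor gene, had 32 UMIs in Tdg_KO and 56 in Tdg_WT, or 73.2 and 191 CPM (0.384, 0.241 to 0.603). It was found in 25.6% and 35.6% of members. Thinned to 1000 UMIs per barcode, its ratio was 0.823. Ctla4 then had a UMI in only 3 of 82 Tdg_KO and 2 of 45 Tdg_WT members. Pdcd1 was at 128 and 225 CPM (0.570, 0.392 to 0.826), with a ratio of 0.823 when thinned, which left a UMI in 12 of 82 and 8 of 45 members. Among members with Cd163l1 alone, where most Pdcd1 lay, it was at 178 and 255 CPM. Cd69, a gene of activation and residency, was higher, at 1008 and 708 CPM (1.42, 1.21 to 1.69). Tnfrsf4 was at 61.7 and 160 CPM (0.386, 0.231 to 0.633), with 51.9% and 42.6% of its UMIs in 1 barcode, and its ratio was 2.58 without barcodes holding UMIs of another lineage. Cd2 (0.651, 0.388 to 1.09) and Tnfrsf9 (0.631, 0.374 to 1.06) had intervals that hold 1, and without those barcodes their ratios were 2.19 and 0.794.

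Of the 16 measured genes of the S100, metallothionein and iron list, 5 were at least 1.5-fold lower in Tdg_KO members and 4 higher, with a median of −0.29. Without the 2 mixed barcodes, 6 were lower and 0 higher. S100a6 was at 2739 CPM in Tdg_KO and 5016 CPM in Tdg_WT (0.546, 0.506 to 0.590), and S100a4 at 2474 and 3958 CPM (0.625, 0.575 to 0.680). Both encode calcium-binding proteins. S100a6 was found in 95.1% and 97.8% of members, and S100a4 in 89.0% and 100% of them. Vim, the vimentin gene, was at 745 and 1242 CPM (0.600, 0.515 to 0.699), and Lgals1, the galectin-1 gene, at 1182 and 2423 CPM (0.488, 0.435 to 0.547). In other T barcodes Lgals1 had a ratio of 0.850. S100a10 (0.718), S100a11 (0.728) and S100a13 (0.707) did not pass 1.5-fold. S100a8 and S100a9, 2 of the 4 higher ones, lay in the mixed barcode named above, and Fth1, the ferritin heavy chain gene, was at 7543 and 4897 CPM (1.54, 1.45 to 1.64).

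Of the single genes named by rule, Tiparp had the largest ratio. It encodes an ADP-ribosyltransferase induced by the aryl hydrocarbon receptor, and stood at 203 CPM in Tdg_KO and 47.6 CPM in Tdg_WT (4.27, 2.42 to 8.13), from 89 UMIs in 27 barcodes and 14 UMIs in 9 barcodes. Its ratio in other T barcodes was 0.983 (0.910 to 1.06). Thinned to 1000 UMIs it was 1.76. Socs3, the gene of a brake on STAT3 signalling, was at 311 and 146 CPM (2.12, 1.5 to 3.07), against 1.03 in other T barcodes. Tgfbr2, a receptor gene for TGF-β, was at 176 and 74.9 CPM (2.35, 1.45 to 3.97). Ramp3, the gene of a partner protein of peptide hormone receptors, was at 798 and 436 CPM (1.83, 1.49 to 2.26). Retreg1 (2.49), Lmo4 (2.19), Aff1 (2.73), Ddx3x (1.91) and Atad2 (2.31) were the other higher ones. These 5 had ratios between 1.06 and 1.24 in other T barcodes.

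Of the lower genes named by rule outside those groups, Uqcr10, which encodes a subunit of respiratory complex III, was at 165 CPM in Tdg_KO and 374 CPM in Tdg_WT (0.440, 0.322 to 0.597), and found in 56.1% and 84.4% of members. Gpx1, the glutathione peroxidase 1 gene, was at 256 and 476 CPM (0.537, 0.415 to 0.694). Coro1a, an actin regulator gene of leukocytes, was at 638 and 1113 CPM (0.573, 0.487 to 0.675), against 1.01 in other T barcodes, and its ratio was 0.892 when thinned. Id2, a transcriptional regulator gene of innate lymphocytes, was at 439 and 803 CPM (0.547, 0.449 to 0.664). Rsrp1 (0.342) and Gstp1 (0.336) were the others by the same rule. Thinned, Rsrp1 had a ratio of 0.0549, with only 30 Tdg_KO and 59 Tdg_WT UMIs before thinning. Gstp1 was lower in other T barcodes as well, at 0.578, and has near-identical copies that may share reads.

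**Figure D5:**
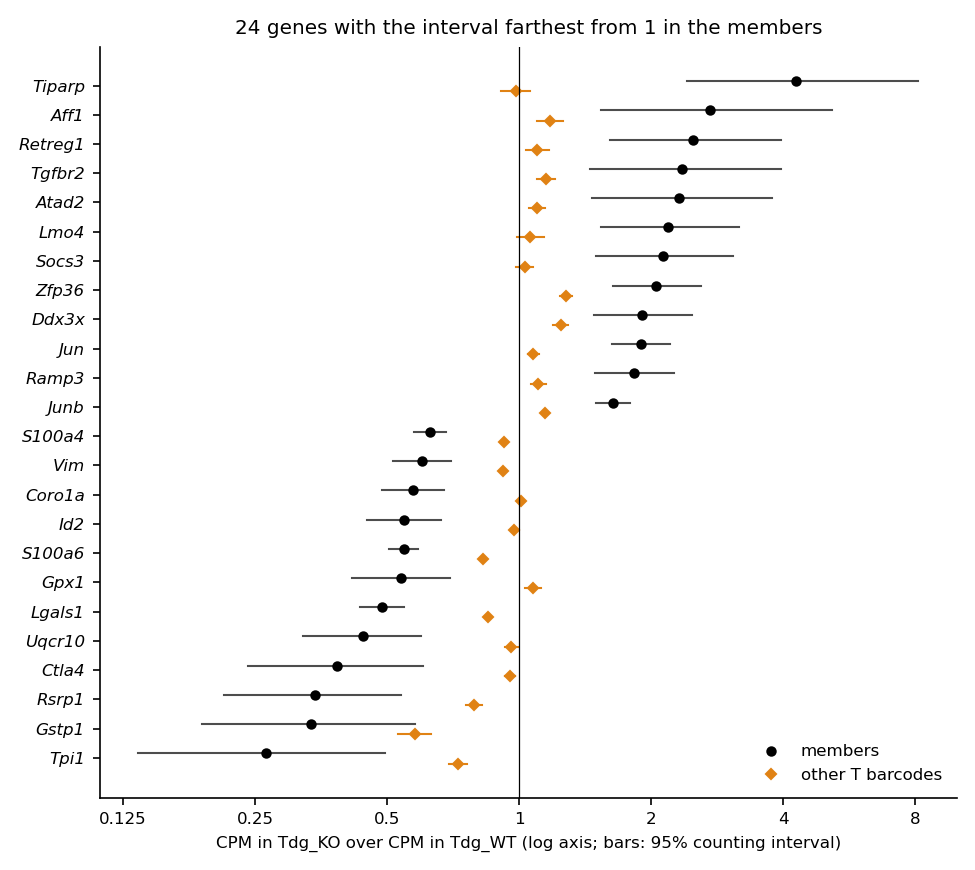
Ratio of CPM in Tdg_KO over Tdg_WT (x axis, logarithmic, with 95% counting intervals) for the 12 higher and 12 lower genes named by rule, in members (black circles) and in other T barcodes (orange diamonds). Member ratios run from Tiparp at 4.27 to Tpi1 at 0.265, and the other T barcodes lie between Zfp36 at 1.28 and Gstp1 at 0.578.

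Secreted and cytotoxic outputs were measured on few barcodes. Of 8 measured genes of the cytokine list, 4 were at least 1.5-fold higher and 0 lower, with a median of 0.58. The 4 were Il17f, Tnf (1.70, 0.915 to 3.33), Tnfsf11 and Cxcl2, and 82.2% of the 353 Cxcl2 UMIs in Tdg_KO lay in 1 barcode. Without that barcode and the Tdg_WT barcode with most Trac, the median was 0.31 over the 7 genes still measured, and it was −0.21 over 5 genes without any barcode that held UMIs of another lineage. Ltb, the lymphotoxin β gene, was at 764 CPM in Tdg_KO and 956 CPM in Tdg_WT (0.799, 0.679 to 0.939). Areg, a tissue repair factor gene, had 39 UMIs in 7 Tdg_KO barcodes and 10 UMIs in 6 Tdg_WT barcodes. The cytotoxic list had 4 higher and 2 lower of 8 measured, with a median of 0.67. The higher genes were Nkg7, Gzmc, Xcl1 and Ctsw, with 19.3% to 68.2% of their Tdg_KO UMIs in 1 barcode, and the lower ones Gzmb and Ccl5.

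The other lists had few measured genes or lay near the median of all genes. Cytokine and growth factor receptors had a median of 0.08 (3 higher and 2 lower of 14), chemokine receptors 0.11 (1 higher of 9), tissue residency 0.13 (1 higher of 12), and proliferation 0.29 (2 higher of 5). Medians were −0.12 for type I interferon (2 lower of 5), −0.11 for the interferon γ response (1 higher of 12) and 0.01 for histones (1 lower of 6). The αβ receptor list had a median of −0.36, with 1 lower of 3, and the lipid list −0.11, with 1 lower of 3. The lower αβ gene was Trac, whose ratio of 0.658 became 1.77 without the mixed barcode of each library. A UMI of Mki67 or Top2a was found in 10 of 82 Tdg_KO members (12.2%, 6.01 to 21.3%) and 6 of 45 Tdg_WT members (13.3%, 5.05 to 26.8%).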

How the data were processed

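The authors deposited whole-number UMI counts per gene and barcode for 2 libraries, 1 per group. Per the file headers the count matrices came from Cell Ranger 6.0.1, and mm10 and Seurat are named in the submitters' processing notes. Barcodes were kept with 200 or more genes detected and mitochondrial UMIs of 10% or less. No doublet caller was run, and no genes or barcodes were corrected for free RNA. UMIs were summed over the members of each library and given as CPM, with exact conditional Poisson 95% intervals for ratios and Clopper-Pearson intervals for shares. Both cover counting error only. Cells are not replicates, so no p-value was computed and no sample-level test could be made.

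A gene was measured between libraries with at least 50 UMIs over all members. Lower genes against other T barcodes needed at least 50 UMIs over all other T barcodes. Named between libraries were the 12 genes each way whose interval bound nearest to 1 was farthest from 1, among genes found in at least 5% of members where higher and with at most 25% of that library's UMIs in 1 barcode. Named against other T barcodes were the 15 highest and 10 lowest by the ratio nearer to 1, among genes found in at least 10% of barcodes. These rankings left out the genes of the membership rule, unnamed gene models, antigen receptor variable genes, and haemoglobin, sex-linked, ribosomal protein and mitochondrial genes. Further genes come from 18 gene lists and 16 marker lists, of which Mx1 alone was not found. The genes that divide the members by 5830411N06Rik, and others named outside the rule, were chosen after their values were seen. Some single-gene values are not reported here. The members and lists were chosen with earlier results of these data known. Alternatives changed the barcode filter, the membership rule, depth, barcode weight, scaling and minimum count. Calculations used Python 3.11.15 with numpy 2.4.6, scipy 1.17.1 and pandas 2.3.3, and the counting steps were tested on simulated data. Gene coordinates are from GENCODE M21 on GRCm38 and promoter sequences from RefSeq on GRCm38.p6.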

Additional observations from a re-analysis of the deposited data

Results flagged for a closer look

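The genes below had ratios of Tdg_KO over Tdg_WT on opposite sides of 1 in members and other T barcodes of the same libraries. They are a selection, since Tiparp (4.27 and 0.983) and Coro1a (0.573 and 1.01), given above, met this as well. The share of all measured genes that did so is not given here. The difference between the 2 sets was not tested, since each group is 1 library. Gpx1 had a ratio of 0.537 in members and 1.08 in other T barcodes. Pdcd1 had 0.570 and 1.09, and Ifngr2, a chain of the interferon γ receptor, 1.76 and 0.845. Il2ra, the α chain of the interleukin 2 receptor, had 0.639 and 1.06, with 29.5% of its Tdg_WT member UMIs in 1 barcode, and its ratio in members was 0.878 without the 2 mixed barcodes and 0.977 without barcodes holding UMIs of another lineage. For Cxcl2, Gzmc, S100a8, S100a9 and Tnfsf11, most of the Tdg_KO UMIs of the members lay in 1 barcode. Cxcl2 had 47.4 in members and 0.719 in other T barcodes, with 82.2% of its Tdg_KO member UMIs in 1 barcode. Gzmc, a granzyme gene, had 57.1 and 0.754, with 68.2% in 1 barcode. S100a8 had 6.32 and 0.597, with 95.7% in 1 barcode, and S100a9 14.9 and 0.881, with 89.9%. Tnfsf11, the gene of the bone-resorption cytokine RANKL, had 2.75 and 0.853, with 53.3%.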

How the results depend on the processing

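No paired analysis was possible because each group is 1 library, and no replicate could be left out. The share of members among T barcodes had a ratio of 1.51 to 1.69 under 6 alternatives, against 1.63. The number of genes past a fold depends on the minimum count. The 220 higher and 118 lower genes between libraries became 1400 and 707 with a minimum of 10 UMIs, 88 and 45 with 100, 2132 and 1324 with no minimum, and 497 and 349 when every barcode was thinned to 1000 UMIs. Against other T barcodes the 104 higher genes became 271, 65 and 483 with minimums of 10, 100 and none, and the 1717 lower ones 3740 and 5853 with 10 and none, 504 against other T barcodes with Trdc, and 117 where at least 50 UMIs were predicted. The last of these, the exclusion of the 2 mixed barcodes, the thinning to 3000 UMIs the subset with Cd163l1 and no 5830411N06Rik and the counts of list genes under each alternative were chosen after seeing the data. Thinned, the list medians were 0.16 for immediate early and 1.01 for proliferation genes. Thinned ratios of single genes rest on fewer UMIs than the full ones, and no interval was computed for them. None of the 24 genes named by rule between libraries changed direction under the alternatives run. Other list genes did, counted here where the interval of the ratio as reported excludes 1. Thinned ratios were Atf3 0.862, Ctsw 0.878, Gzmb 1.37, H2afz 0.848, Icos 1.00, Ier5 0.659, Ifi27l2a 1.10, S100a13 1.05 and Trbc1 1.25. Without barcodes holding UMIs of another lineage they were Dnajb1 0.906, Ftl1 0.981, Hsp90aa1 0.841, Ifi27l2a 1.93, S100a8 0, S100a9 0.430, Tnfrsf4 2.58 and Trac 2.23. Without the Tdg_KO barcode with most Cxcl2 and the Tdg_WT barcode with most Trac they were Ftl1 0.939, S100a8 0.325 and Trac 1.77. In the Cd163l1 subset they were Ftl1 0.906, Il17f 0.530 and S100a8 0.435. Without the top barcode of each gene they were Ftl1 0.996, Hspa1b 1.20, S100a8 0.336 and Trac 1.42. The cause was not tested. Over all results a comparison rests on, 246 alternative values moved by less than the limit set for each, and 17 moved by more. Of the values for single genes 1765 were alike, 120 moved and 27 changed direction in this sense. With genes whose interval holds 1, such as Cd2, Gata3, Tnf and Itgav, 182 values lay on the other side of 1. A gene with fewer than 3 UMIs per library lies below 6.86 CPM in Tdg_KO and 10.2 CPM in Tdg_WT members and cannot be compared.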
